A study of Mus musculus with 52 samples.

Results

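The regions described here are binding sites of PPARG in mouse brown adipose tissue (BAT) that every PPARG library held, at room temperature (RT) and in cold, and that carried no peak of the histone mark H3K27ac. Peaks of the 3 PPARG lists from RT and the 3 from cold were merged on chromosomes 1 to 19 and X into 59518 sites. Of these, 22583 (37.9%) were present in all 6 lists and are called stable. Among the stable sites, 2268 overlapped no peak in any of the 6 H3K27ac lists of a wild-type (WT) cohort. They are called unacetylated here, which refers to peaks of that cohort only, and made up 10.0% of the stable sites and 3.81% of all merged sites. The other 20315 stable sites overlapped H3K27ac in at least 1 of the 6 lists and serve as the comparison.

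The series is a set of chromatin immunoprecipitation sequencing (ChIP-seq) experiments on BAT after 4 h of cold or at RT, and 35 of its 52 samples had a peak list. PPARG, ERR1 (1 library per temperature) and the first H3K27ac cohort (3 libraries per temperature) came from WT mice. PPARA came from HA-PPARA KI (knock-in) mice (2 libraries at RT, 3 in cold), CEBPA from HA-CEBPA KI mice (3, RT only), CEBPB from HA-CEBPB KI mice (2, cold only) and PGC1A from PGC1A-HIsHA KI mice (3, cold only). These 4 proteins were pulled down with 1 antibody, and the third PGC1A library carried the genotype label HA-CEBPA KI and was grouped by its title. A second H3K27ac cohort, the TXNIP cohort, had 2 libraries for each pair of genotype (TXNIP KO, a knockout, or TXNIP WT) and temperature. The labels give no age or sex and do not state whether replicates are different animals, so p-values reflect the spread between libraries, which can be technical. BAT holds several cell types, and a peak list does not tell which of them a peak came from.

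PPARG is the nuclear receptor that drives fat cell formation. With its partner RXR it binds a direct repeat of the half-site AGGTCA with 1 base between the copies, called DR1. H3K27ac, acetylation of lysine 27 on histone H3, is found at active promoters and enhancers, where coactivators such as p300 and CBP deposit it, and binding of a factor without the mark is commonly read as an inactive or primed element. PPARA is a related receptor of fatty acid burning, ERR1 an orphan receptor of mitochondrial genes, and PGC1A their coactivator, which cold induces. CEBPA and CEBPB are partners of PPARG in fat cells, and TXNIP is a protein that limits glucose uptake. Peak lists of H3K27ac do not measure the knockout itself, so the TXNIP KO labels were not checked.

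As a check on the tissue, H3K27ac and PPARG peaks were listed at Ucp1, Cidea, Adipoq, Fabp4 and Pparg, genes of brown or general fat cells, in all 20 lists of these 2 targets. None of these lists had a peak at Alb of liver, Myod1 of muscle or Neurog2 of neurons. PPARG lists held 33272 to 47081 peaks, WT-cohort H3K27ac lists 49147 to 60204 and lists of the TXNIP cohort 37555 to 54832. H3K27ac peaks were wider in the TXNIP cohort (medians of 1132 to 1364 bp) than in the WT cohort (600 to 660 bp). Read depth is unknown from peak lists, so a missing peak means only that none was listed.

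Few of these regions lay in promoters, and the sequences of 4 of those that did are given as examples. In all, 25 unacetylated sites had their PPARG summit, the median position of highest enrichment over the 6 lists, within the 250 bases before a start site listed by RefSeq (build GRCm38.p6), against 2637 of the other stable sites. The 2 promoter sites ranked highest by PPARG fold are shown first, at Scn4b, which encodes a sodium channel beta subunit, and at B3gnt4, which encodes a sugar transferase. They are followed by those at Ces4a, a carboxylesterase gene, and Trem2, which encodes a lipid-sensing receptor of macrophages, whose promoters hold a half-site. Each run is the strand of the gene, 5′ to 3′, and ends at the base before the start. Capitals mark the half-site AGGTCA on either strand and, at Ces4a, the DR1 that differs from the repeat at 2 bases. At Scn4b and B3gnt4 no letters are in capitals, since neither motif was found.
Scn4b: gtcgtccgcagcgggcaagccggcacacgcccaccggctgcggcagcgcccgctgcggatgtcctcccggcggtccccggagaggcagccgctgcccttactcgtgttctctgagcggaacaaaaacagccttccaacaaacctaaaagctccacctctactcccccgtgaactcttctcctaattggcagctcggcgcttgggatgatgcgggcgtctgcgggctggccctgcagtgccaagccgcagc
B3gnt4: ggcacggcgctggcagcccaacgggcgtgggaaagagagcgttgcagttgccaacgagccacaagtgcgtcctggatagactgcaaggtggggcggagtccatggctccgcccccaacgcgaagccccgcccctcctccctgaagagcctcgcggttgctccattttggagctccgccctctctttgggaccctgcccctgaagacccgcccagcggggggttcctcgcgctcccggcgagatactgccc
Ces4a: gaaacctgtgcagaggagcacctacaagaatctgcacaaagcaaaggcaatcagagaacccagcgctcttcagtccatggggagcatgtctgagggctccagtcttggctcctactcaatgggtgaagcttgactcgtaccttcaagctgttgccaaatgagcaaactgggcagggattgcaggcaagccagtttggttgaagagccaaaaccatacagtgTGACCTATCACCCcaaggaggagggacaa
Trem2: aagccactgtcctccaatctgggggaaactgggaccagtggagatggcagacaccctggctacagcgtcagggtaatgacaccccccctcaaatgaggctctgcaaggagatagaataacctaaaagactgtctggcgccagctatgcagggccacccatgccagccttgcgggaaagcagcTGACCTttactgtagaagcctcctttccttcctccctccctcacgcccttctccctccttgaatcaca

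The Scn4b run is chr9:45138374-45138623 on the plus strand, and its PPARG summit lay 67 bases before the start. Its deposited fold enrichment over background, the authors' own value for each peak, was 17.5, 23.0 and 20.8 in the RT lists and 28.6, 32.2 and 32.8 in the cold lists. All 3 cold values were above all 3 RT values. All 5 PPARA lists held this site, none of the 8 H3K27ac lists of the TXNIP cohort did, and the nearest WT-cohort H3K27ac peak was 42874 bp away. The B3gnt4 run (chr5:123508232-123508481, plus strand) had its summit 248 bases before the start and a fold of 29.3, 34.3 and 22.4 at RT and 15.5, 18.3 and 25.1 in cold. Here the ranges of the 2 temperatures overlapped, and all 3 CEBPA and both CEBPB lists held the site. The Ces4a run (chr8:105131550-105131799, plus strand) had its summit 17 bases before the start, close to its DR1, with a fold of 8.31 to 16.5. The Trem2 run (chr17:48346151-48346400, plus strand) had its summit 24 bases before the start, a fold of 4.63 to 8.29 at RT and 9.48 to 12.96 in cold, and a peak in 13 of the 15 lists of the other factors.

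Of the 25 windows of 250 bases with such a summit, 8 held AGGTCA on either strand, or 32.0%. The share was 12.3% of 3000 windows with the summit of another stable site and 14.1% of all 32609 windows. A DR1 with at most 2 mismatches, which can overlap a counted half-site, was found in 4 of the 25 windows, in 4.27% of the windows of other stable sites and in 3.26% of all windows. The C/EBP motif TTGCNNAA was found in 5 of the 25, against 6.90% and 9.62%. No window of the 25 held the ERR motif TCAAGGTCA, which was in 0.389% of all windows. These shares rest on 25 windows and are a description of letters, not of binding.

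PPARG itself was listed at similar strength at unacetylated and other stable sites, apart from the very top. These values chose the sites and were not tested. The median fold at unacetylated sites was 10.1, 10.4 and 9.06 in the RT lists, against 10.5, 11.1 and 10.2 at the other stable sites. In the cold lists it was 7.75, 7.996 and 9.01, against 8.90, 9.54 and 10.4. The unacetylated sites were thus lower in each of the 6 lists, by a small amount. Sites were also ranked by the mean over lists of their fold percentile within the list. Of 10 equal rank groups, the lowest had 6.95% unacetylated sites, group 4 had 14.1%, and the highest 1.55%, or 35 sites. Unacetylated sites were narrower, with a median merged width of 810 bp against 1227 bp. Their summits in the 6 lists spanned a median of 51 bp, against 78 bp.

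**Figure D1:**
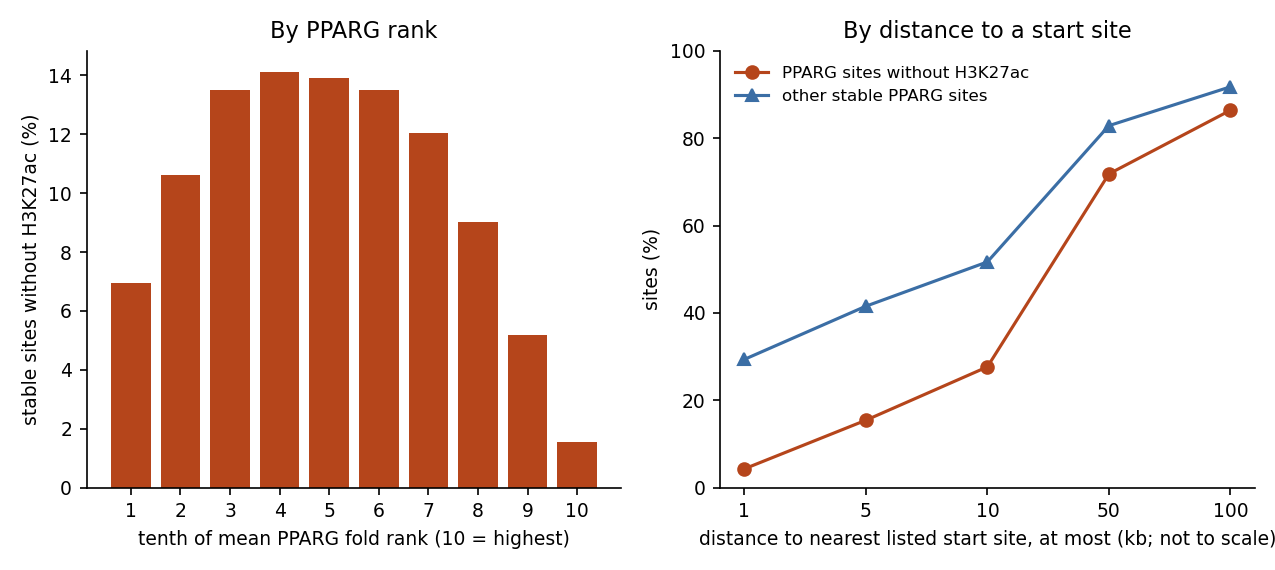
Left, the percentage of stable PPARG sites without H3K27ac (bars) in each of 10 equal groups by mean PPARG fold rank, which runs from 6.95% in the lowest group over 14.1% in group 4 to 1.55% in the highest. Right, the cumulative percentage of sites within 1 to 100 kb of a listed start site, for unacetylated sites (circles) and other stable sites (triangles); within 1 kb it was 4.34% against 29.4%.

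Stability and acetylation went together across the merged sites. Of the 12439 sites in a single PPARG list, 58.4% overlapped no WT-cohort H3K27ac, and of the 5266 sites in exactly 5 lists 23.9% did not. On the other side of the rule, 651 stable sites overlapped H3K27ac in exactly 1 list, with a median overlap of 257 bp, and 16390 in all 6. Sites in exactly 1 H3K27ac list had a median PPARG fold of 8.04 to 10.9 over the 6 lists, and unacetylated sites 7.75 to 10.4. The 1260 sites without WT-cohort H3K27ac that missed only 1 PPARG list, and so were not stable, had median folds of 5.38 to 6.95 where listed. The list most often missed was cold replicate 1, at 526 of them.

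The nearest WT-cohort H3K27ac peak was usually far from an unacetylated site. The median gap was 15.01 kb, with quartiles at 4.64 and 42.9 kb. Only 150 of the 2268 sites (6.61%) had a peak within 1000 bp and 588 (25.9%) within 5 kb. The smallest gap was 5 bp, at a site 3.07 kb from Acot1, an acyl-CoA thioesterase gene (chr12:84020356-84021198), which 6 of the 8 TXNIP-cohort lists held. The largest was 2.95 Mb, at a site 1344 kb from Cntnap5b, a neuronal adhesion gene (chr1:101834743-101835371), where no TXNIP-cohort list had a peak.

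Unacetylated sites lay away from promoters. Start sites used here were listed on the chromosomes of 2211 of them and of 19646 other stable sites. Only 4.34% were within 1 kb of a listed start site, against 29.4% of the other stable sites, and the median distance was 23.5 kb against 9.06 kb. Of the unacetylated sites 50.2% lay in the body of a protein-coding gene, against 60.0%, and 18.3% lay more than 50 kb from any gene body, against 8.92%. Exons and introns were not analysed here. On the X chromosome 46 of 258 stable sites (17.8%) were unacetylated. The autosomes ranged from 7.85% to 13.01%.

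The start site nearest to an unacetylated site also carried H3K27ac less often than the start nearest to another stable site. Among sites more than 1 kb from a start, a window from 250 bases before to 50 after the nearest start overlapped H3K27ac for 35.8% of unacetylated and 58.8% of other stable sites, as means over the 8 TXNIP-cohort lists. The share was lower in 8 of 8 libraries, with a difference of -23.0 ± 0.41 percentage points (SD over libraries; exact sign-flip permutation over libraries, two-sided, p = 0.00781, the smallest this design allows). All listed starts carried it at 40.1% to 44.5%. In the WT cohort, 1355 of the 2115 unacetylated sites with a start more than 1 kb away (64.1%) had a nearest start with no H3K27ac in any of the 6 lists, against 40.2% of the other stable sites and 58.2% of all listed starts. For 611 (28.9%) it had the mark in all 6, against 50.9% and 35.8%. The test of nearest starts was not among the 6 targets adjusted together, and its p-value is unadjusted. The other stable sites were chosen for overlap with this mark and were wider. They also lay closer to listed starts, with a median over all sites of 9.06 kb against 23.5 kb. The part of each in these differences was not tested, and the test over libraries cannot tell them apart. The nearest start need not be the gene a site acts on.

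The choice of sites did not use the TXNIP cohort, but it used the same mark in the same tissue. A lower share at unacetylated sites than at other stable sites thus follows from the choice, where peak lists repeat between cohorts. The shares below describe how far they repeated. H3K27ac in the TXNIP cohort was far rarer at unacetylated sites, but it was not absent. In TXNIP WT mice the mark covered 14.8% and 7.41% of unacetylated sites at RT and 11.5% and 18.5% in cold. In the TXNIP KO mice it covered 6.44% and 10.7% at RT and 24.2% and 28.7% in cold. At the other stable sites the 8 lists lay between 89.6% and 96.9%. The groups of sites did not overlap in any library, with a mean of 15.3% against 94.0% and a difference of -78.8 ± 5.8 percentage points (SD, n = 8 libraries). The exact sign-flip permutation over libraries, two-sided, gave p = 0.00781, and 0.0469 after Benjamini-Hochberg adjustment over the 6 targets compared. Without any 1 library the adjusted p was 0.0938, since 7 libraries cannot reach a lower value. Because the sets were chosen by this mark in the WT cohort, the test shows only that its peak lists repeat between cohorts. It is no separate finding about these sites. In all, 1241 unacetylated sites (54.7%) had no peak in any of the 8 lists, against 120 other stable sites (0.591%). A peak in all 8 was found at 17 unacetylated sites. Among them were one 46.6 kb from Tle3, which encodes a corepressor that acts with PPARG in fat cells (chr9:61323558-61326694), one 89.1 kb from Pdcl3 (chr1:39085674-39086835) and one 43.4 kb from Rgs3 (chr4:62745873-62746843). The nearest WT-cohort H3K27ac peak was 7798, 6573 and 350 bp from these sites. A site named for Lrrc4c, of low PPARG fold and described below, was also among the 17.

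The other factors were listed at fewer of the unacetylated sites than of the other stable sites in each of the 15 libraries, to very different degrees. PGC1A, the coactivator, differed most in relative terms: its 3 lists held 1.32%, 0.970% and 1.28% of unacetylated sites and 10.6%, 9.15% and 11.6% of the others, a ratio of 0.114 between the means. ERR1 at RT held 17.2% (95% exact binomial interval 15.7 to 18.8, counting error only) against 39.3%, and ERR1 in cold 46.9% (44.8 to 48.9) against 70.9%. PPARA at RT held 52.0% and 47.1% against 71.9% and 68.9%. In cold PPARA held 25.2%, 13.4% and 13.7% against 41.2%, 28.6% and 26.2%. CEBPA held 41.3%, 41.5% and 51.7% against 50.6%, 51.5% and 64.2%. CEBPB held 42.8% and 47.5% against 51.9% and 56.0%. The C/EBP proteins differed least in relative terms, with ratios of the shares between 0.805 and 0.849 in the 5 libraries.

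For these 5 factors the number of libraries was too small for the test to pass. The exact sign-flip permutation p over libraries was 0.0625 for PPARA (5 libraries), 0.25 for PGC1A and CEBPA (3 each) and 0.5 for CEBPB and ERR1 (2 each), each the smallest possible. Site width differed between the 2 sets (medians of 810 and 1227 bp), and its part in these differences was not tested. Among sites of 600 to 1000 bp only (1544 unacetylated and 5997 other), the CEBPA difference shrank from -10.6 to -0.72 percentage points, CEBPB from -8.80 to -1.97 and PPARA from -17.1 to -3.93. PGC1A (1.08% against 4.76%) and ERR1 (29.8% against 40.9%) kept more of theirs, and H3K27ac of the TXNIP cohort was 13.9% against 88.0%. In a window reaching 150 bp to each side of the PPARG summit the differences were -6.85 for CEBPA, -3.89 for CEBPB, -15.2 for PPARA, -7.50 for PGC1A and -18.3 for ERR1. Both of these settings were chosen after the data were seen.

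**Figure D2:**
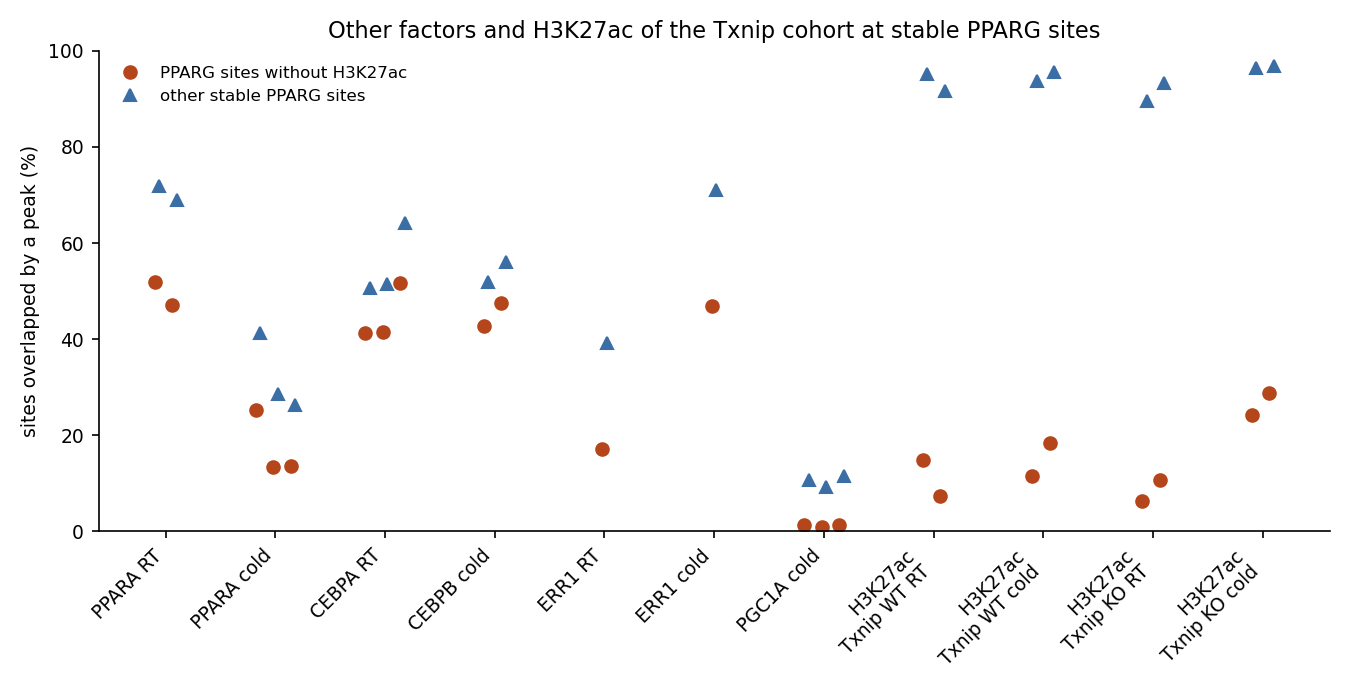
Percentage of unacetylated PPARG sites (circles) and of other stable PPARG sites (triangles) overlapped by a peak, on the vertical axis, with 1 pair of points per library, grouped by target and temperature. The H3K27ac libraries of the TXNIP cohort lie between 6.44% and 28.7% at unacetylated and between 89.6% and 96.9% at other stable sites, while the CEBPA and CEBPB points lie between 41.3% and 51.7% at unacetylated and between 50.6% and 64.2% at other stable sites.

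Shares were also read at the ends of the PPARG rank. In the highest of the 10 rank groups, CEBPA lists held on average 76.2% of the 35 unacetylated sites and 80.5% of the 2223 others, and PPARA lists 69.7% and 86.8%. PGC1A lists held 1.90% and 25.9%. In the lowest rank group PPARA lists held 17.5% and 23.8% and PGC1A lists 3.82% and 4.55%. The 157 unacetylated sites of this group included 4 sites, described below, with a PPARG fold under 3 in all 6 lists. Each of the 4 was in all 3 PGC1A lists. The PGC1A shares of unacetylated sites thus rest on few sites in both groups and were not compared between them. In that lowest group CEBPA held more of the unacetylated sites, 45.2% against 37.1%, in 3 of 3 lists, and CEBPB 45.2% against 36.1%, in 2 of 2 lists. Grouped by how many of the 6 WT-cohort H3K27ac lists held a site, the mean PPARA share ran from 30.3% at 0 lists over 42.7% at 3 to 48.7% at 6. PGC1A stayed under 5% up to 5 lists, with no single list above 4.29%, and its highest list held 13.5% of the sites marked in all 6. The median width ran from 810 bp at 0 lists over 992 bp at 5 to 1318 bp at 6, so width and PGC1A rose at the same step.

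**Figure D3:**
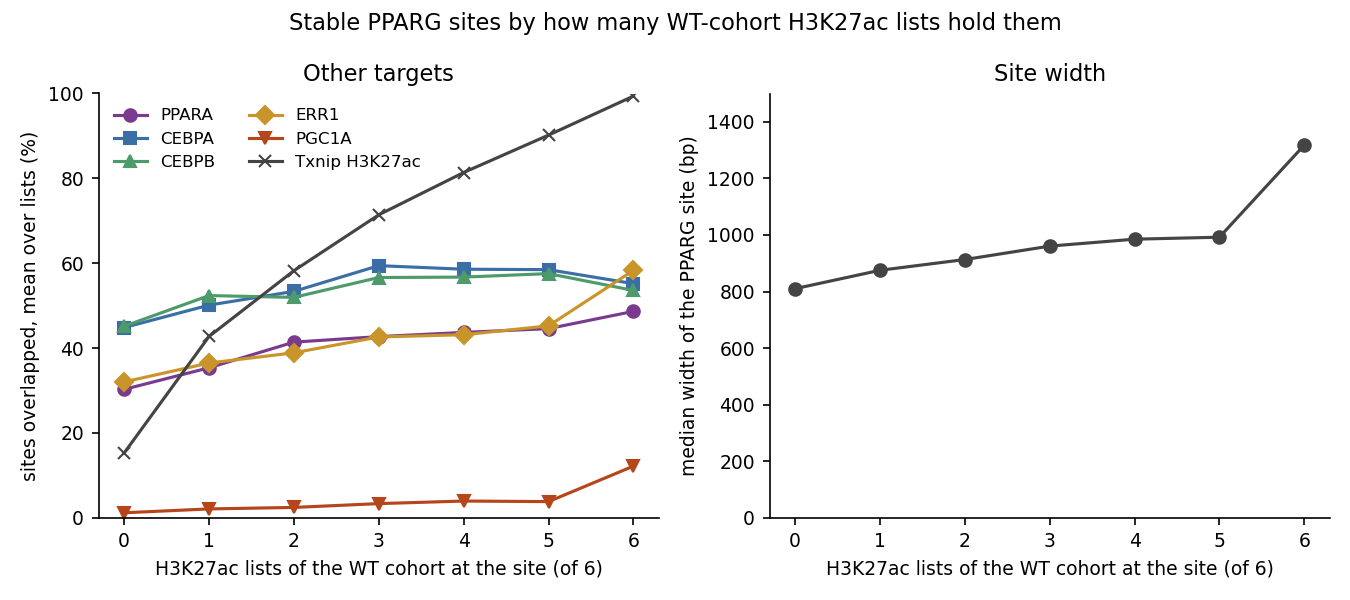
Left, the mean percentage of stable PPARG sites overlapped by each target (vertical axis) against the number of WT-cohort H3K27ac lists that held the site, from 0, the unacetylated sites, to 6. Right, the median width of these sites in bp; it runs from 810 bp at 0 lists to 1318 bp at 6, and the PGC1A line rises mainly between 5 and 6 lists.

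Combinations of factors were counted with a factor taken as present in at least 2 of its lists of a temperature, or in the only one. CEBPA was present at 1002 unacetylated sites (44.2%) and CEBPB at 899 (39.6%), and 796 (35.1%) had both, against 54.6%, 48.7% and 44.5% of the other stable sites. PGC1A was present at 17 sites (0.750%), against 9.90% of the other stable sites. No list of any of the 5 other factors had a peak at 378 unacetylated sites (16.7%), against 11.4% of the others. At 231 of them (10.2% of unacetylated sites, against 0.0541% of the others) the TXNIP-cohort lists had no peak either, so that PPARG was the only target listed in any library. All 5 other factors, with ERR1 at both temperatures, met at 4 unacetylated sites (0.176%), against 6.41% of the others.

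These 4 sites were of 2 kinds. One lay in Adamts2, a collagen-processing protease gene (chr11:50672489-50673633), with a PPARG fold of 31.6, 28.5 and 28.1 at RT and 14.9, 15.9 and 19.7 in cold, and another 130 kb from Serp2 (chr14:76686249-76687019), with a fold of 7.47 to 10.9. The other two, 1.04 Mb from Lrrc4c (chr2:98666314-98667283) and 102 kb from Esp38 (chr17:39847428-39848724), had folds of 1.71 to 2.27 and 1.75 to 2.14 and were in all 15 lists of the other factors. With 2 sites 117 and 116 kb from Gm2244 (chr14:19415863-19416839 and chr14:19417308-19417861; fold 1.19 to 1.79), they were the only 4 stable sites with a PPARG fold under 3 in all 6 lists. All 4 were in at least 13 of the 15 factor lists and in at least 2 of the 3 PGC1A lists, so 4 of the 17 unacetylated sites with PGC1A were of this kind. Of these sites, the one named for Lrrc4c was in all 8 TXNIP-cohort H3K27ac lists, and those named for Esp38 and Gm2244 were in none.

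The 12 highest-ranked unacetylated sites show the range of company that strong PPARG binding kept. At the top was a site within Grik4, a kainate receptor subunit gene (chr9:42756231-42757774), with a fold of 48.4, 57.4 and 52.6 at RT and 53.7, 58.9 and 61.7 in cold. It was in 12 of 15 factor lists, in no PGC1A list, and in 1 of the 8 TXNIP-cohort H3K27ac lists. A site within Spon1, a matrix protein gene (chr7:114005602-114007082), had 73.2, 74.95 and 69.3 at RT and 44.8, 46.5 and 47.9 in cold. Its RT and cold values did not overlap.

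A site 2.90 kb from Hoxc8, a homeobox gene of body position that is expressed in white fat precursors (chr15:102987133-102988053), stood apart in company. Its fold was 41.0, 48.0 and 39.4 at RT and 40.8, 43.5 and 52.1 in cold, and no list of another factor and no TXNIP-cohort H3K27ac list had a peak there. The nearest WT-cohort H3K27ac peak was 2.48 kb away. A site 11.4 kb from Lbx1, a homeobox gene of limb muscle precursors (chr19:45220501-45221678), was similar: its fold was 36.5, 40.4 and 28.3 at RT and 39.6, 35.2 and 47.0 in cold, and only 1 PPARA cold list held it. By contrast, the site 51.3 kb from Nr2f2, which encodes the nuclear receptor COUP-TFII (chr7:70300042-70301054), had a fold of 34.4 to 44.2 and was in 11 of 15 factor lists. The sites within Xylt1, Agxt and the RNA-binding protein gene Larp1, and one 160 kb from the prolactin receptor gene Prlr, were in 11 or 12. The site within Kcnq1, a potassium channel gene, was in 2, and the one 28.6 kb from Prr5, an mTORC2 subunit gene, in 4. The one 68.2 kb from Zc3h12a, which encodes an RNase of inflammatory transcripts, was in 9. Like the site near Hoxc8, those named for Spon1, Agxt, Nr2f2, Lbx1 and Prlr had no TXNIP-cohort H3K27ac peak.

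**Figure D4:**
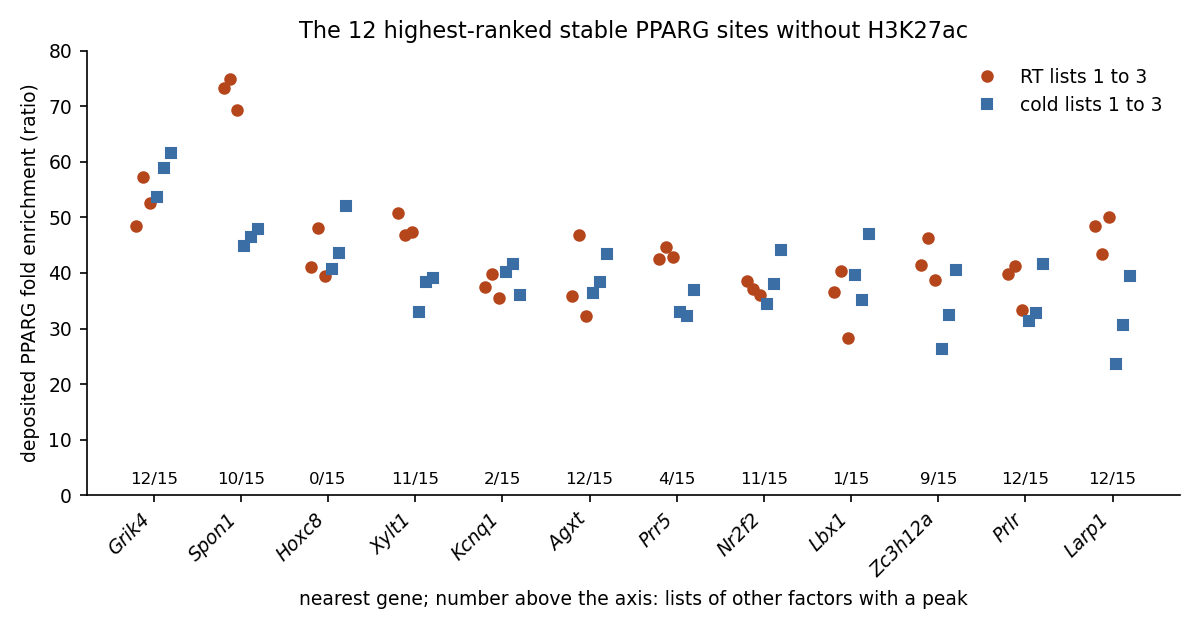
Deposited PPARG fold enrichment (ratio, vertical axis) at the 12 unacetylated sites of highest rank, named by the nearest gene, with 3 RT lists (circles) and 3 cold lists (squares) each; the fraction above the axis is the number of the 15 lists of other factors with a peak. Hoxc8 has folds of 39.4 to 52.1 and 0 of 15 lists, and Grik4 48.4 to 61.7 and 12 of 15.

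Cold and Txnip genotype were compared over the TXNIP-cohort libraries. At unacetylated sites H3K27ac was at 8.55% ± 3.0 in KO at RT, 26.5% ± 3.2 in KO in cold, 11.1% ± 5.2 in WT at RT and 14.99% ± 4.9 in WT in cold (SD, n = 2 each). Both KO cold libraries lay above the other 6, and the WT libraries of the 2 temperatures overlapped. The share was 10.9 percentage points higher in cold than at RT within genotype (exact stratified permutation, two-sided, p = 0.111) and 4.48 points higher in KO than WT within temperature (exact stratified permutation p = 0.333). The smallest p either test can give is 0.0556. The rise in cold was 17.9 points in KO and 3.90 in WT, and the difference of 14.0 between them gave p = 0.111 (exact permutation of genotype within temperature, added after the data were seen). KO cold lists were the longest, with 53651 and 54832 peaks against 37555 to 47548 in the other 6. With each list reduced to its 37555 strongest peaks, the cold difference was 3.66 points (exact permutation p = 0.111) and the shares were 14.1% in KO cold and 7.30% in KO RT, 8.55% and 9.10% in WT at RT and in cold. At other stable sites the difference in cold was 3.25 points with the lists as deposited and 1.37 with lists of equal length.

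**Figure D5:**
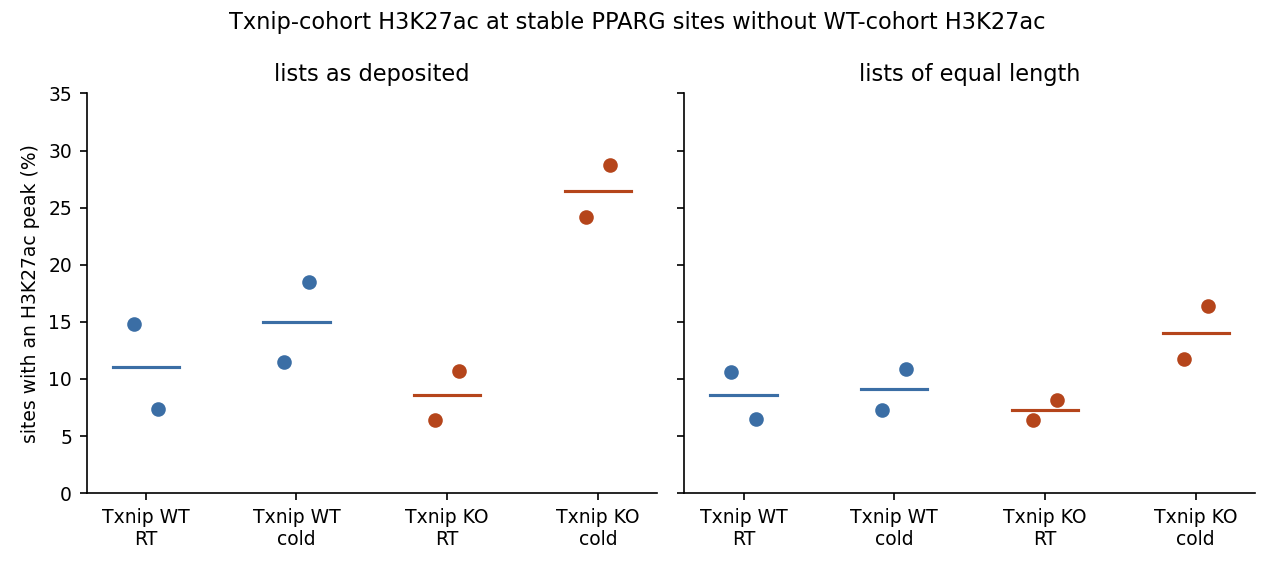
Percentage of the 2268 unacetylated sites with a TXNIP-cohort H3K27ac peak (vertical axis) by genotype and temperature, with points for the 2 libraries of a group and lines for their mean. With the lists as deposited (left) the KO cold libraries reach 24.2% and 28.7%, and with lists of equal length (right) 11.7% and 16.4%.

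Single sites were sorted by the lists that held them. In all 4 cold lists and no RT list of the TXNIP cohort were 47 unacetylated sites (2.07%), against 1.01% of all stable sites. In all 4 RT and no cold list were 2 (0.0882%), against 0.128%. Both KO cold lists and none of the other 6 held 88 (3.88%), against 0.536%, and both WT cold lists alone held 8 (0.353%), against 0.0974%. All 4 KO lists and no WT list held 6, against 0.0399% of all stable sites, and the reverse was seen at 1, against 0.0177%. Stable sites with the mark in all libraries cannot enter these sets, and 84.3% of the other stable sites were in all 8 lists.

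Among the cold-only sites the highest ranked lay within Rabgap1, a gene of vesicle traffic (chr2:37548899-37550215), with a PPARG fold of 23.1, 23.7 and 19.3 at RT and 28.7, 29.1 and 37.4 in cold. A site 16.7 kb from Fam220a (chr5:143580755-143581798) had 13.7, 19.1 and 13.4 at RT and 30.4, 28.9 and 37.7 in cold. Both had higher folds in every cold list than in every RT list, as did a site 307 kb from Diras2 (chr13:52196352-52197496; 15.7 to 17.2 and 20.3 to 24.8). Other cold-only sites did not share this pattern. The site within Mcc had 43.5, 38.5 and 24.7 at RT and 8.61, 15.2 and 10.7 in cold, and at a site within Ifngr2, an interferon gamma receptor gene (chr16:91557365-91558276), the ranges overlapped (14.3 to 17.8 and 16.9 to 19.8). At the 2 RT-only sites the folds were higher in the RT lists. The one within Prdm11 (chr2:93036458-93038099) had 30.7, 33.7 and 42.8 at RT and 5.17, 6.36 and 8.45 in cold, and the one within Apba2 (chr7:64577975-64579161) had 26.2, 24.1 and 17.2 at RT and 6.03, 9.54 and 8.73 in cold. Folds of separate lists share no scale, and these values were not tested. The nearest WT-cohort H3K27ac peak was 485 bp from the Rabgap1 site, 252 bp from the Ifngr2 site and 244 bp from the Apba2 site. It was 8278, 6957, 4687 and 2666 bp from the sites named for Fam220a, Diras2, Mcc and Prdm11. H3K27ac peaks were wider in the TXNIP cohort, and the part of this at sites with a near peak was not tested. KO-only sites lay within Strip2 (chr6:29935399-29936889; PPARG fold 26.96 to 36.96 at RT and 15.2 to 17.5 in cold) and Egflam (chr15:7247292-7249608; 23.3 to 29.3 and 6.89 to 8.37), and PPARG was profiled in WT mice only.

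PPARA was listed at fewer unacetylated sites in cold, at 17.4% ± 6.7 (SD, n = 3) against 49.5% ± 3.5 at RT (n = 2). The difference was -32.1 percentage points (exact permutation, two-sided, p = 0.1, the smallest possible). The PPARA lists in cold were also shorter, with 7317 to 11107 peaks against 23589 and 26388. With all lists reduced to 7317 peaks the shares were 15.96% and 15.8% at RT and 17.8%, 13.4% and 13.7% in cold, which overlapped, and the difference was -0.91 (exact permutation p = 0.7). Both RT lists and no cold list held 386 unacetylated sites (17.02%), against 20.4% of all stable sites, and all 5 held 116 (5.11%), against 16.6%. A peak in the 3 cold lists but neither RT list was found at 8 (0.353%), against 0.137%. ERR1 was in the cold list only at 690 sites (30.4%), against 32.1%, in the RT list only at 17 (0.750%), against 0.695%, and in both lists at 373 (16.4%), against 36.4%. With 1 ERR1 library per temperature there is no test, and its cold list was longer (45800 against 16020 peaks).

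Within the unacetylated sites, H3K27ac of the TXNIP cohort was more often present where other factors were. It covered 18.2% of sites with CEBPA and 12.98% of those without, a difference of 5.19 ± 2.9 percentage points (SD over 8 libraries), and 18.6% with CEBPB against 13.1% without. With ERR1 in cold the means were 16.7% and 14.0%, and with any other factor 15.9% and 12.2%. Each of these was higher in 8 of 8 libraries (exact sign-flip permutation p = 0.00781, adjusted p = 0.0109 over 7 features, chosen after the data were seen). With PPARA at RT they were 18.2% and 13.5%, higher in 7 of 8 libraries (exact permutation, adjusted p = 0.0182). Site width was not matched in these comparisons, and its part in them was not tested. The last 2 of the 7 features rest on lists that the rule used. They were tested and counted in the adjustment, but their p-values are not given here. Of the sites within 5 kb of a WT-cohort H3K27ac peak 23.4% carried the mark and of the more distant ones 12.4%, and by PPARG rank it was 15.55% above and 15.002% below the median of these sites.

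Genes were grouped by lists drawn up with earlier results of these data known, and a site was assigned to a gene within 10 kb. The lists are described by counts, beside the 10.0% of all stable sites that were unacetylated. That share covers stable sites at any distance from genes. Of unacetylated sites 18.3% lay more than 50 kb from any gene body, against 8.92% of the others. The share among stable sites within 10 kb of any gene was not computed, so a list under 10.0% need not be low for its position. Of the 92 stable sites at PPAR target genes 3 were unacetylated (3.26%), of 39 at lipolysis genes none, of 82 at lipogenesis and triglyceride synthesis genes 2 (2.44%), of 43 at glucose uptake and glycolysis genes 1 (2.33%), and of 48 at endothelial genes 1 (2.08%). At circadian clock genes it was 3 of 59 (5.08%), at adipocyte identity genes 8 of 130 (6.15%) and at thermogenesis genes 8 of 102 (7.84%). Fibroblast and preadipocyte genes had 0 of 8 and liver genes 0 of 7. Above 10.0% were 5 lists, most with few stable sites: 7 of 19 at nerve and neuron genes (36.8%), 4 of 6 at developmental transcription factors (66.7%), 2 of 7 at skeletal muscle genes (28.6%), 1 of 4 at macrophage and lymphocyte genes and 2 of 10 at white adipocyte genes.

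Single sites at metabolic and fat cell genes differed in fold and in company. Cpt1a, which brings fatty acids into mitochondria, held 2 within its body. The one at chr19:3333134-3334829 had a PPARG fold of 21.9, 24.5 and 23.6 at RT and 12.9, 14.4 and 15.2 in cold, with all CEBPA and CEBPB lists, and the other (chr19:3355672-3356488; fold 7.67 to 14.7) was in 3 factor lists. Within Ppargc1a, the gene of PGC1A, a site (chr5:51849160-51849734; fold 5.43 to 8.74) was in 2 of 3 PPARA cold lists and no RT list, in all CEBPA and CEBPB lists, and in both TXNIP KO cold H3K27ac lists alone. Pdk1, a kinase that restrains pyruvate oxidation, and Rora, a clock nuclear receptor, had sites with the mark in the same 2 lists only. A site within Esrrg, an ERR family gene (chr1:188077462-188078348; fold 24.6, 19.99 and 16.1 at RT and 15.5, 10.5 and 13.8 in cold), had the mark in all 4 cold lists and no RT list. Zfp423, which encodes a factor of white fat identity, held 2 sites with no H3K27ac in any list, the stronger (chr8:87737791-87738568) with a fold of 23.2 to 25.3 at RT and 13.5 to 18.9 in cold.

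Sites at genes of other lineages differed in the same way. One within Ttn, the giant protein of muscle (chr2:76979880-76980734), had a fold of 24.2, 25.2 and 25.8 at RT and 30.4, 28.9 and 33.8 in cold and was in all 5 PPARA lists and no C/EBP list. One within Lsamp, a neuronal adhesion gene (chr16:40075363-40076068), had 20.9, 16.5 and 20.5 at RT and 19.2, 26.0 and 27.8 in cold, was in all CEBPA and CEBPB lists, and lay 1173 kb from the nearest WT-cohort H3K27ac. The 2 sites at Gata4, a factor of heart and gut development, were in no list of another factor and no H3K27ac list. The stronger one (chr14:63270541-63271443) had a fold of 12.99, 16.5 and 14.7 at RT and 6.89, 5.45 and 6.19 in cold.

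Most unacetylated sites stood alone. Joined at gaps under 20 kb, they formed 2112 runs, of which 1976 held 1 site and 16 held 3 or more. The longest run had 5 sites and ended within Irs2, the gene of an insulin receptor substrate (chr8:10939823-10994058), and 3 of its 5 sites had a TXNIP-cohort H3K27ac peak in at least 1 list. Runs of 4 lay at Jdp2, a repressor gene of the AP-1 family (chr12:85624503-85644352), and Npas2, a clock gene (chr1:39267496-39318563). In a run of 3 near Tle3, the closest PPARG summit lay 34509 bp from the gene. In all, 1768 genes were nearest to at least 1 site, 354 to 2 or more and 36 to 4 or more. Most, with 7 each, were found for Auts2, Irs2, Plpp3, which encodes a lipid phosphatase, and Tle3.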

How the data were processed

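Per the submitters' processing notes, peaks are on build GRCm38.p6 and the tools named are MACS2 2.2.7.1, BWA 0.7.17, deepTools 3.4.3, Trim Galore 0.6.0 and SAMtools. Settings: not given in the sources used here. Per the labels' protocols, chromatin was fixed with 0.8% formaldehyde for 12 min, after 2 mM DSG for 25 min except for H3K27ac. The authors deposited 1 peak list per library, with a fold enrichment (ratio), a −log10 p-value and a −log10 q-value per peak. The fold was used to describe and rank sites within a list. Peak lists give no read depth, so no depth-based interval was computed, and list length can move with depth. The 17 input libraries were not analysed here.

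Peaks overlapping by at least 1 bp were merged, and a list held a site it overlapped by at least 1 bp. Shares of sites were computed per library, and libraries were compared by exact permutation (sign flips for 2 sets of sites, stratified label permutation for conditions), two-sided, with an adjusted p threshold of 0.05. The site members and gene lists were chosen with earlier results of these data known. Sites were named by the nearest protein-coding gene body of a RefSeq table of the same build. Distances to genes were taken from the PPARG summit, and gaps to H3K27ac peaks from the edges of the site. Named sites were the 12 of highest mean PPARG percentile, up to 3 per gene list, those with all 5 factors, the highest ranked with TXNIP-cohort H3K27ac in 1 temperature or genotype only, the longest runs, and sites nearest to the limits of the rule. The text gives some of them, and the other sites, Tle3, Pdcl3, Rgs3 and the 4 promoters included, were chosen after their values were seen. RefSeq promoter windows were searched for the motifs on both strands. No 2 lists were identical. The code was tested on simulated data. Tests were run in Python 3.11.15 with scipy 1.17.1 and numpy 2.4.6, and tables in pandas 2.3.3. Alternatives covered stricter peaks, other overlap rules, equal list lengths, other subsets of sites, a replicate block and leaving out each library.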

Additional observations from a re-analysis of the deposited data

How the results depend on the processing

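The number of unacetylated stable sites was 2268, and 1241 when TXNIP-cohort H3K27ac was also required to be absent. It was 1392 when each PPARG list had to cover at least 50% of the site. The other 5 settings gave 2004 to 3200 sites, and leaving out 1 PPARG or H3K27ac library gave 2292 to 2795. The lower H3K27ac share of the TXNIP cohort at these sites kept its sign under 8 other settings (-82.3 to -62.2 percentage points). The adjusted p of the sign-flip permutation was 0.0469 in each. Without 1 library the difference was -80.3 to -78.0 with an adjusted p of 0.0938. The sign follows from the choice of sites by the same mark, so these values describe only how far peak lists repeat. The 5 factors kept a negative sign in all settings run and passed in none. At sites of 600 to 1000 bp the CEBPA difference was only -0.72 points. In the lowest PPARG rank group, which was not among these settings, CEBPA and CEBPB were listed at more of the unacetylated sites than of the others. The differences between temperatures and genotypes at these sites kept their sign and passed under no setting, nor could they at this number of libraries. As a replicate block, with libraries of the same number paired, the cold difference in H3K27ac was 10.9 points (exact permutation p = 0.25), the genotype difference 4.48 (0.375) and the PPARA difference -30.2 (0.5). Replicate differences correlated at 0.00235 and -0.022 between temperatures, 0.096 and -0.092 between genotypes and -0.00027 for PPARA. These are correlations of listed and unlisted peaks at the sites. They cannot tell whether libraries of the same number share an animal or a batch.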
